A study of Rattus norvegicus with 6 samples.

Results

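The circadian clock genes Per1, Per2, Per3, Arntl, Clock, Cry1, Cry2, Dbp, Nr1d1 and Nr1d2 were followed in the rostral ventrolateral medulla (RVLM), the brainstem region whose neurons set sympathetic drive to the heart and vessels. Members were all probe sets whose deposited gene symbol was exactly one of these 10 names. The rule found 15 probe sets for the 10 genes, of 31042 probe sets and 13682 gene symbols on the array. The genes were chosen as a check for a difference in collection time between strains, not by their values. Earlier results of these data were known when the genes were chosen. One group was 3 rats of the spontaneously hypertensive strain (SHR), which is inbred and whose blood pressure climbs with age, and the other was 3 WKY rats, spelled Wistar-Kyoko in the labels and taken here as Wistar-Kyoto, the usual normotensive comparison strain. Each Affymetrix rat expression array held the RNA of 1 animal, so n counts animals. No animal was treated, body weight was 250 to 350 g, and the room had 12 h of light and 12 h of darkness, per the labels. The hour of collection, age and sex are not given in the sources used here. A whole-strain comparison carries every genetic difference between SHR and WKY.

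The circadian clock is a feedback loop of transcription that runs in most cells. The proteins of Arntl (also named Bmal1) and Clock pair up and switch on the Per and Cry genes, whose proteins return to the nucleus and shut their own activators down. A second loop runs through Nr1d1 and Nr1d2, which encode the repressors REV-ERB alpha and beta. These repress Arntl, so that in rodent tissues Arntl RNA peaks when REV-ERB RNA is low. Dbp, a transcription factor gene driven directly by the loop, is known for a wide daily swing in rodents. In a brain region sampled at 1 time of day, the levels of these RNAs depend on the hour at which each animal was taken. Per1 is also induced within the hour by glucocorticoids and by neuronal activity.

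No clock gene that passed the detection filter differed between the strains at the threshold of the test. Arntl was the lowest of them in SHR relative to WKY and 1 of 3 Nr1d2 probe sets was higher in SHR, by 1.23-fold and 1.20-fold, each without overlap of the animals. Dbp, Per2, Cry1, Cry2 and Nr1d1 had overlapping strains. Per1, which was not detected on any array by the detection call, had a higher signal in all SHR animals than in all WKY animals.

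Tissue markers bore on what the samples held. Tyrosine hydroxylase, Dbh and Pnmt, genes of the catecholamine neurons of the region, were Present on all arrays, as were 4 of 6 Hox probe sets that mark hindbrain. Both pineal probe sets (Asmt, Aanat) failed the detection filter, and 1 of them was Absent on every array. The summed linear signal of the kept Hox probe sets was 931 to 1557 in SHR and 1679 to 2235 in WKY, and all 4 differences were below 0 with an unadjusted p under 0.05, where the array had 9.52%. They ran from -1.52 (Hoxb5) to -0.35, and the lowest adjusted p was 0.0908. The kept erythroid probe sets of Hbb and Alas2 summed to 4610 to 5825 in SHR and 5243 to 8800 in WKY, and both had an unadjusted p under 0.05. The 7 kept oligodendrocyte probe sets summed to 77514 to 84864 in SHR and 85254 to 90850 in WKY. Sums of the astrocyte sets overlapped, at 19743 to 27248 in SHR and 23718 to 24948 in WKY. Those of the microglia, endothelial and catecholamine neuron region lists overlapped too. None of these lists held a called probe set, where 0.924% of the array was called. Single animals also stood apart: Ttr, a choroid plexus marker, was at 9.38 in SHR replicate 2 and at 6.51 to 6.83 in the others, and Th ran from 8.84 to 11.64 within WKY. Gfap, an astrocyte marker, was at 11.26 in SHR replicate 2 and at 12.45 to 12.75 in the others. Of 5 probe sets of genes of the suprachiasmatic nucleus, the seat of the master clock, 3 passed the detection filter. These were Vip, Lhx1 and Six6, Present on 5, 4 and 3 arrays, and none of the 5 sets was Present on all arrays. The part of tissue position, choroid plexus, myelin, astrocytes and blood in the clock gene values was not tested. In bulk tissue, fewer cells of a type and less RNA per cell cannot be told apart.

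The letters through which the loop acts on itself were read from RefSeq promoter windows of GRCr8, the 250 bases before each listed gene start. A window was found for 9 of the 10 members, all but Cry1, with 2 starts for Clock and Nr1d1. Both strands were searched for the E-box CACGTG and the E-prime box CACGTT, bound by ARNTL and CLOCK, for the D-box TTATGTAA or TTACGTAA, bound by DBP, for the core of the RORE, TAGGTCA or TGGGTCA, bound by REV-ERB and ROR proteins, and for the CRE TGACGTCA, bound by CREB. No motif overlapped another. The 3 windows shown are those of the RORE of Arntl, the E-box of Nr1d1 and the D-box and E-prime box of Per2, with the motifs in capitals, 5′ to 3′. Arntl lies at chr1:176766078-176766327 on the plus strand, Nr1d1, at its second listed start, at chr10:84229455-84229704 on the minus strand, and Per2 at chr9:99496994-99497243 on the minus strand.
Arntl: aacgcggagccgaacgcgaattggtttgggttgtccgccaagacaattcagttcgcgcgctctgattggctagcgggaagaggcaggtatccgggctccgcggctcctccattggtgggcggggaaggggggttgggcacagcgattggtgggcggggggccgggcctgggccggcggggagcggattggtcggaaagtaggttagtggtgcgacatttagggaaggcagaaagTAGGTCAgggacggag
Nr1d1: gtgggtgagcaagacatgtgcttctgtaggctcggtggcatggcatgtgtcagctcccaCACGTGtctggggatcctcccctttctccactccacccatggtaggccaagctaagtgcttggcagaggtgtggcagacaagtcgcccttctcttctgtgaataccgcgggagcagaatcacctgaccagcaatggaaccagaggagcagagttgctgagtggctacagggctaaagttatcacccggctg
Per2: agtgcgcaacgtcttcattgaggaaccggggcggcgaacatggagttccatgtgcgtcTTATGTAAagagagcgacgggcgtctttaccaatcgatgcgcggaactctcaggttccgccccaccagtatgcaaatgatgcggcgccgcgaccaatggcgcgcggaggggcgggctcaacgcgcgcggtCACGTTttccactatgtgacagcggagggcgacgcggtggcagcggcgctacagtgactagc

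The RORE core of Arntl, TAGGTCA, spans bases 16 to 10 before the gene start. It was the only match to the 2 searched core forms in the members' windows, and 5.62% of 33469 windows of the table hold one. Other forms of the RORE were not searched. The Nr1d1 E-box spans bases 191 to 186, and 5.59% of all windows hold an E-box. The D-box of Per2 lies at bases 192 to 185 and its E-prime box at 62 to 57; D-boxes are in 0.932% of windows and E-prime boxes in 4.07%. An E-prime box was also found in Cry2 and at the first start of Nr1d1. The windows of Per1, Per3, Dbp, Clock and Nr1d2 held none of these letters, and no member window held the CRE, which is in 1.59% of all. A match is a run of letters and not a measured site. The lack of a match holds only for these windows, as sequence further upstream or within the genes was not searched.

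**Figure D1:**
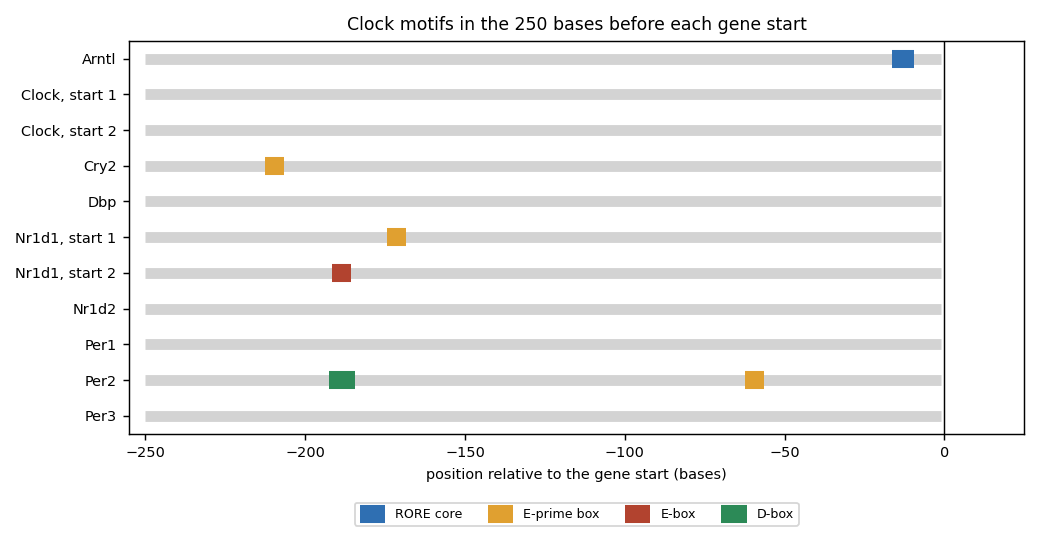
Motif positions in the 250 bases before each gene start, in bases from the start, for the 11 RefSeq windows of 9 clock genes. Grey bars are the windows and coloured blocks the matches; 4 of the 9 genes hold at least 1 match, and the RORE core of Arntl lies closest to a start.

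Of the 15 probe sets, 9 passed the filter, which asks for a Present call on at least 3 of the 6 arrays. They stand for 7 genes and all 9 were Present on every array. The 6 others include all probe sets of Per1, Per3 and Clock and the second sets of Per2 and Cry2, and 5 of these 6 were Absent on every array. Limma called 0 of the 9 kept probe sets at an adjusted p under 0.05, where 0.924% of all 20790 kept probe sets were called. At an unadjusted p under 0.05 there was 1 of 9, where the array had 9.52%. Strains did not overlap in 2 of 9, where the array had 15.0%. These counts are near the background of the array. The adjusted p of the 9 lay between 0.263 and 0.964. Of the 9 differences 6 were above 0 and 3 below, with a median of 0.07 on the log2 scale, against a median of 0.00139 and a share of 50.3% above 0 over the array.

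**Figure D2:**
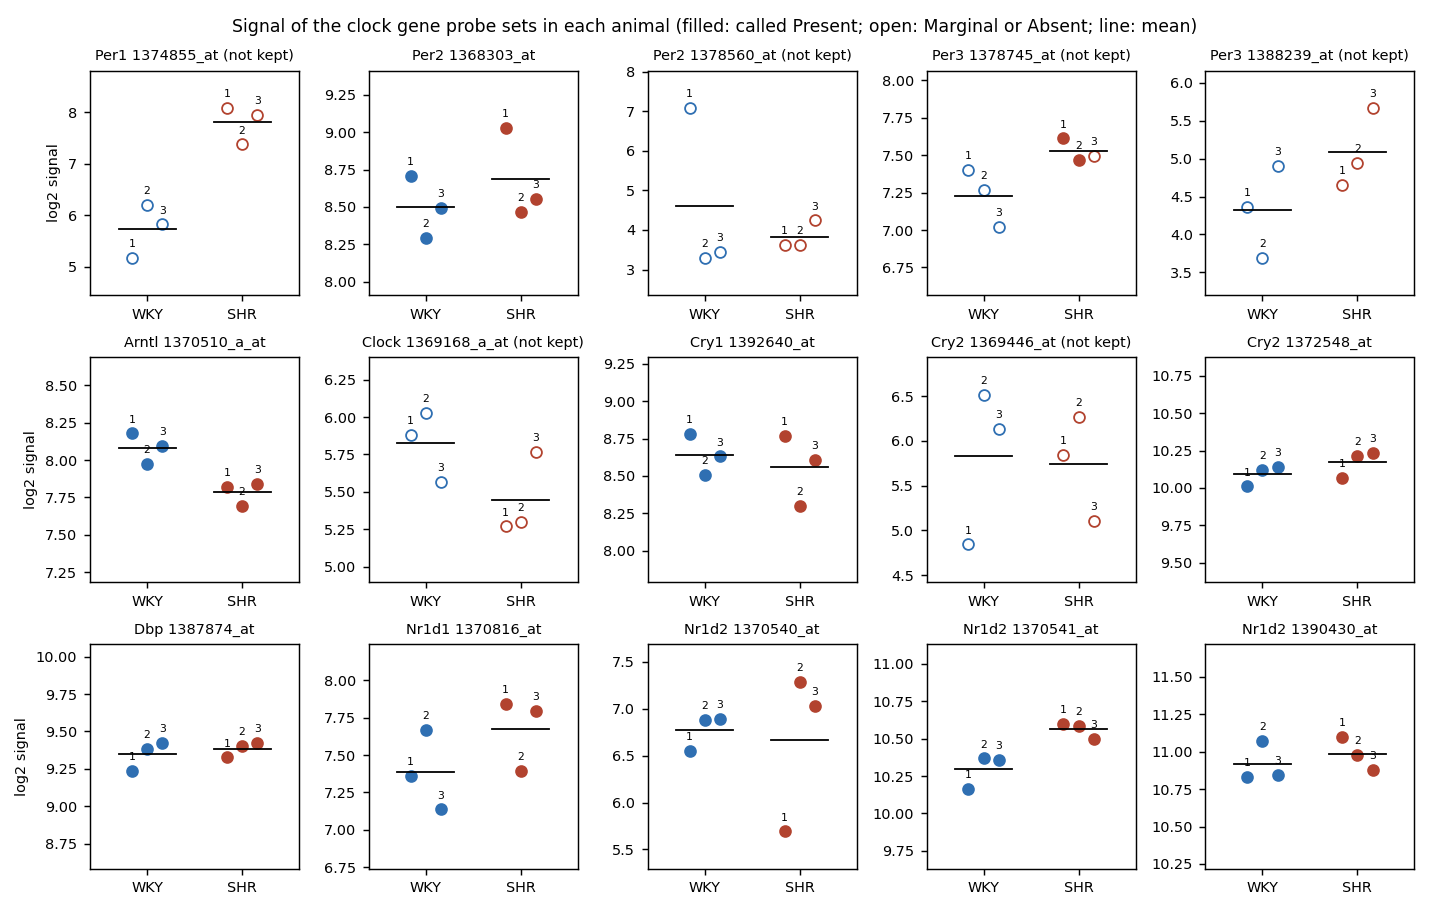
Log2 signal of each of the 15 clock gene probe sets in each animal, with WKY in blue, SHR in red, replicate numbers above the points and a line at each strain's mean. Filled points were called Present. The strains do not overlap for Per1 1374855_at, Per3 1378745_at, Arntl and Nr1d2 1370541_at, and the Per1 points are all open.

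Arntl, the activator of the loop, was read by 1 probe set, aligned to chromosome 1 at 185075228 to 185105413 (Rnor5.0). Its log2 signal was 7.82, 7.69 and 7.84 in the SHR animals and 8.18, 7.97 and 8.10 in the WKY animals. All 3 SHR animals lay below all 3 WKY animals, with a gap of 0.13 between the nearest ones. The difference, SHR minus WKY, was -0.30 ± 0.14 (SE, n = 3 each), or 1.23-fold lower in SHR, with a 95% interval of -0.62 to 0.02 and an adjusted p = 0.567. It was not called. Non-overlap with SHR lower was seen for 7.76% of kept probe sets. Leaving out any 1 animal moved the difference to between -0.35 and -0.25.

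Clock, the partner of Arntl, could not be followed. Its probe set was Absent on all 6 arrays, with signals of 5.27, 5.30 and 5.77 in SHR and 5.88, 6.03 and 5.57 in WKY. The strains overlapped, and at this signal no level in either strain can be given.

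Per1, a light- and stress-responsive repressor of the loop, was read by 1 probe set on chromosome 10 at 55439239 to 55439612 (Rnor5.0). Its log2 signal was 8.09, 7.38 and 7.95 in SHR and 5.18, 6.20 and 5.82 in WKY, and each of the 6 signals was called Absent. The signals of the SHR animals were all above those of the WKY animals. As the probe set was Absent in both strains, no size of the difference is given. Fitted without the detection filter, over 31042 probe sets of which 0.445% were called, it had an adjusted p = 0.0308. Of the 7013 probe sets Absent on all arrays, 2 were called in that fit, or 0.0285%. Of the 10252 sets that failed the filter, 5 were called, or 0.0488%. The call did not hold without any one of the animals, each omission giving an adjusted p of 0.0512 to 0.110, nor without a variance trend (adjusted p = 0.233). It also ended with the replicate number as a block. The consensus sequence of this probe set aligned to the genome at 90.75% identity, the lowest of the 15, where the others had 96.09% to 100%. MAS5 calls a set Absent when its matched probes do not exceed their mismatched partners clearly enough to pass its detection test. The part of cross-binding or of a strain sequence difference in this signal was not tested.

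Per2, the member of the Per family most often used as a clock readout, had 1 kept probe set, spanning chromosome 9 at 98231201 to 98273371 (Rnor5.0). Its log2 signal was 9.03, 8.47 and 8.56 in SHR and 8.71, 8.29 and 8.49 in WKY. The strains overlapped, with replicate 1 the highest animal of both. The difference was 0.19 ± 0.17 (SE, n = 3 each; 95% interval -0.20 to 0.57; adjusted p = 0.802), and it was 0.0147 without SHR replicate 1. The second probe set was Absent on all arrays, at 3.62 to 4.24 in SHR and 3.30 to 7.08 in WKY, where replicate 1 alone was above 4.24. That set gave no level for either strain.

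Per3 had 2 probe sets and neither passed the filter. The set at the upstream end of the gene, on chromosome 5 at 171698410 to 171700116 on the minus strand (Rnor5.0), was at 7.61, 7.47 and 7.50 in SHR and 7.40, 7.27 and 7.02 in WKY. It was Present on 2 SHR arrays and on no WKY array, and the SHR animals were all higher, by 0.07 between the nearest. Without the filter the difference was 0.30 ± 0.19 (SE, n = 3 each; 95% interval -0.14 to 0.73; adjusted p = 0.768), which was not called. Non-overlap with SHR higher was seen for 6.87% of all probe sets. The set at the downstream end was Absent on all arrays, at 4.66 to 5.67 in SHR and 3.69 to 4.90 in WKY, and overlapped.

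Cry1 and Cry2 encode the cryptochromes, the strongest repressors of the loop. Cry1 was at 8.77, 8.30 and 8.61 in SHR and 8.78, 8.51 and 8.63 in WKY, a difference of -0.08 ± 0.15 (SE, n = 3 each; 95% interval -0.41 to 0.25; adjusted p = 0.912). Cry2, on the kept probe set, was at 10.07, 10.21 and 10.23 in SHR and 10.01, 10.12 and 10.14 in WKY, a difference of 0.08 ± 0.08 (SE; 95% interval -0.11 to 0.27; adjusted p = 0.833). Both overlapped between strains. The other Cry2 set was Absent on all arrays, at 5.10 to 6.26 in SHR and 4.84 to 6.51 in WKY.

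Nr1d2, which encodes REV-ERB beta, had 3 kept probe sets, and the strains were separate in 1 of them. The set 1370541_at was at 10.60, 10.59 and 10.50 in SHR and 10.16, 10.37 and 10.36 in WKY, so all SHR animals were higher, by 0.13 between the nearest. Its difference was 0.27 ± 0.08 (SE, n = 3 each), or 1.20-fold, with a 95% interval of 0.08 to 0.45, an unadjusted p = 0.00940 and an adjusted p = 0.263. It had the smallest p of the 9 kept probe sets and was not called. Non-overlap with SHR higher was seen for 7.26% of kept probe sets.

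The set 1390430_at, aligned on chromosome 15 at 12818475 to 12819053, just past the end of the alignment of 1370541_at at 12818414 (Rnor5.0), was at 11.10, 10.98 and 10.88 in SHR and 10.83, 11.07 and 10.85 in WKY. It overlapped and differed by 0.07 ± 0.09 (SE, n = 3 each; 95% interval -0.13 to 0.27; adjusted p = 0.873). The set 1370540_at was at 5.69, 7.29 and 7.03 in SHR and 6.55, 6.88 and 6.89 in WKY. SHR replicate 1 was the lowest animal and spread the strain by more than 1 unit. The difference was -0.10 ± 0.38 (SE; adjusted p = 0.964), and 0.39 without SHR replicate 1 (adjusted p = 0.673).

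Nr1d1, which encodes REV-ERB alpha, was at 7.84, 7.39 and 7.79 in SHR and 7.36, 7.67 and 7.14 in WKY. WKY replicate 2 lay above SHR replicate 2, so the strains overlapped. The difference of 0.29 ± 0.20 (SE, n = 3 each; 95% interval -0.16 to 0.74; adjusted p = 0.733) was as large as that of Arntl in the other direction, with a wider error.

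Dbp was the steadiest member between animals. Its probe set, on chromosome 1 at 102766761 to 102771677 (Rnor5.0), was at 9.33, 9.40 and 9.43 in SHR and 9.24, 9.38 and 9.42 in WKY. The whole range over the 6 animals was 0.19 on the log2 scale, the smallest of the 15 probe sets. The strains overlapped and differed by 0.04 ± 0.10 (SE, n = 3 each; adjusted p = 0.943). The 95% interval ran from -0.18 to 0.26, which sets a bound on the size of a strain difference in this RNA.

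Within a strain, the animals did not move as 1 block across the loop. In SHR, replicate 1 was the highest animal for Per2, Cry1, Nr1d1 and the Nr1d2 sets 1370541_at and 1390430_at, and the lowest for Cry2, Dbp and Nr1d2 1370540_at. In WKY, replicate 1 was the highest for Per2, Cry1 and Arntl and the lowest for Cry2, Dbp and all 3 Nr1d2 sets.

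**Figure D3:**
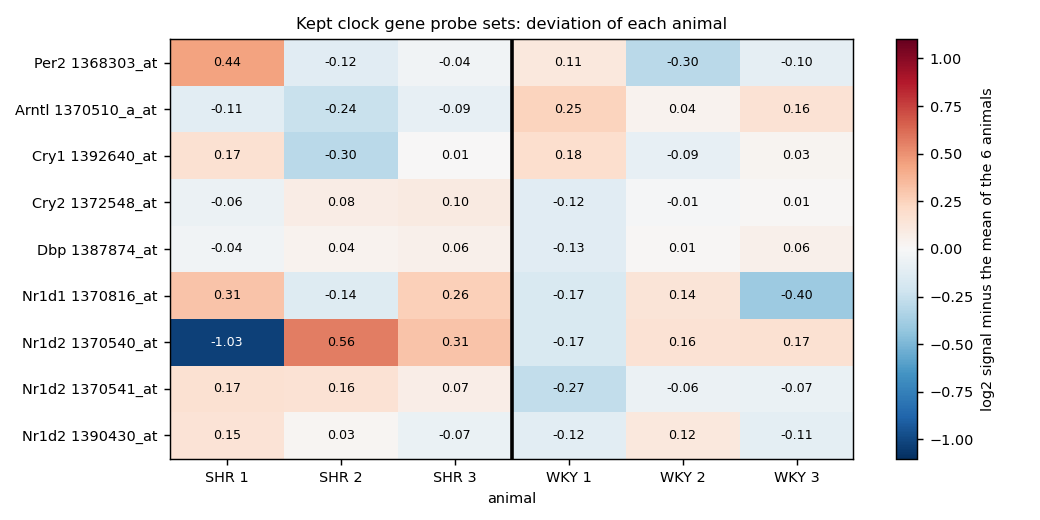
Deviation of each animal from the mean of the 6 animals, in log2 units, for the 9 kept clock gene probe sets, with SHR left and WKY right of the line. Arntl is below the mean in the 3 SHR animals and above it in the 3 WKY animals, Nr1d2 1370541_at shows the opposite, and the largest deviation is -1.03 in SHR replicate 1.

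Other genes of the loop were read from a list of 19 factors and modifiers, of which 15 had a kept probe set. Of 23 kept probe sets limma called 0, where 0.924% of the array was called. At an unadjusted p under 0.05 there were 2, where the array had 9.52%. Strains did not overlap in 4, where the array had 15.0%. Differences were above 0 for 10 and below for 13, with a median of -0.06, where the array had 50.3% above 0. These counts are near the background of the array. Fbxw11, a ubiquitin ligase subunit that marks PER proteins for breakdown, had the smallest p. It was at 12.02, 11.90 and 11.97 in SHR and 11.73, 11.77 and 11.75 in WKY, and all SHR animals were higher. It differed by 0.21 ± 0.06 (SE, n = 3 each; adjusted p = 0.175). The set 1370528_at of Csnk1d, the casein kinase that phosphorylates PER proteins, differed by -0.62 ± 0.24 (SE; adjusted p = 0.422) and was Present on 3 arrays. Its 4 other kept sets lay between -0.13 and 0.03. Some further factors are named for their role, after their values were seen. Npas2, a partner of Arntl that can stand in for Clock, differed by -0.13 ± 0.18, Bhlhe41, a repressor driven by the E-box, by 0.11 ± 0.06, and Nfil3, which binds the D-box against Dbp, by 0.30 ± 0.20 (SE; adjusted p = 0.879, 0.652 and 0.720).

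Genes that follow the clock in many tissues showed no called difference. Of 12 kept probe sets for 7 of 10 listed output genes, limma called 0, where 0.924% of the array was called. None had an unadjusted p under 0.05, where the array had 9.52%, and the median difference was 0.07. These counts are near the background of the array. Tef, a relative of Dbp, differed by 0.60 ± 0.30 (SE, n = 3 each; adjusted p = 0.578) on 1 kept set and by -0.06 ± 0.11 on the other. Wee1, a cell cycle kinase, differed by -0.54 ± 0.25 (adjusted p = 0.555) and, on its other set, by 0.15 ± 0.17. For both genes the sign was not the same on the 2 sets. Chosen after their values were seen, Usp2, a deubiquitinase, differed by 0.41 ± 0.22 and Hlf, another relative of Dbp (listed as LOC690286), by 0.21 ± 0.21 and 0.31 ± 0.33.

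Body temperature has its own daily rhythm, so genes that follow it were set beside the clock genes. Of 9 kept probe sets for 5 of 8 listed genes, limma called 0, against 0.924% over the array. At an unadjusted p under 0.05 there was 1, against 9.52% over the array. The differences were below 0 for 8 of 9, with a median of -0.04, where 50.3% of the array's differences were above 0. The list joins cold-induced genes with heat-induced chaperone genes, so a shared sign was not read as a change in temperature. Of the chaperone genes, Hsph1 lay at -0.08 and -0.01, Dnajb1 at -0.04 and -0.01, and Hspa1a at 0.08. Rbm3, an RNA-binding protein induced by cooling, was at 10.67, 10.78 and 10.87 in SHR and 11.01, 10.97 and 11.10 in WKY. All SHR animals were lower, and the difference was -0.26 ± 0.08 (SE, n = 3 each; adjusted p = 0.239). Cirbp, the other cold-induced RNA-binding protein, lay between -0.13 and -0.00491 on its 3 sets and overlapped between the strains on each.

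**Figure D4:**
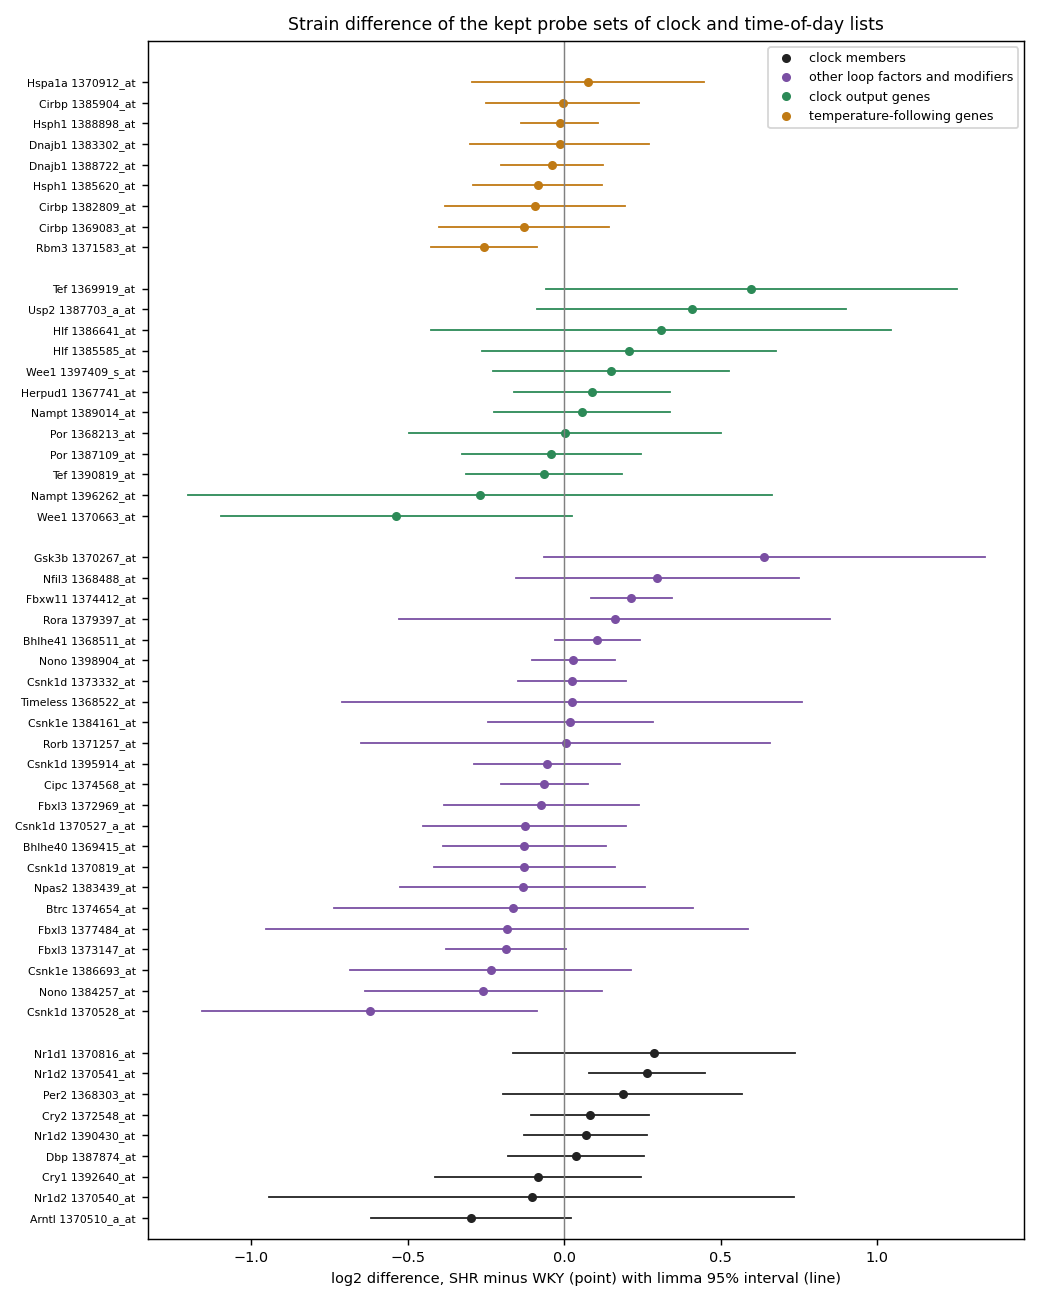
Log2 difference, SHR minus WKY, with limma's 95% interval for the kept probe sets of the clock genes (black), other loop factors (purple), output genes (green) and temperature-following genes (orange). Of the 9 clock gene intervals, only that of Nr1d2 1370541_at lies on one side of 0, at 0.08 to 0.45.

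Since Per1 also answers to glucocorticoids and to neuronal activity, genes of both kinds were read beside it. Of 14 kept probe sets of glucocorticoid-induced genes, limma called 2 higher and 1 lower in SHR, against 0.924% called over the array. With these, 9 of 14 had an unadjusted p under 0.05, against 9.52% over the array, and 8 of 14 had strains that did not overlap, against 15.0%. The differences were above 0 for 11 and below for 3, with a median of 0.22, against 0.00139 over the array. The summed linear signal of the 14 sets was 16947 to 19293 in SHR and 14361 to 15100 in WKY. The list includes genes whose strain difference was known before it was drawn up, so its counts are no independent evidence.

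Sgk1, a kinase that controls ion transport, was at 11.55, 11.57 and 11.48 in SHR and 10.71, 10.57 and 10.56 in WKY. It rose by 0.92 ± 0.07 on the log2 scale (SE, n = 3 each; adjusted p = 0.000219), and every SHR animal was higher. Ddit4, an inhibitor of mTOR signalling, was at 10.94, 10.55 and 10.67 in SHR and 10.21, 10.16 and 10.03 in WKY. It rose by 0.59 ± 0.11 (SE; adjusted p = 0.0320), and every SHR animal was higher. Omitting SHR replicate 3 or WKY replicate 1, 2 or 3 ended that call (adjusted p = 0.0631, 0.104, 0.141 and 0.158), as did a fit with no variance trend (0.195). Dusp1, a MAP kinase phosphatase also induced by activity, was lower in every SHR animal, at 9.94, 9.53 and 9.56 against 10.33, 10.60 and 10.60. Its difference was -0.83 ± 0.13 (SE; adjusted p = 0.0123). Omitting WKY replicate 2 or 3 ended it (adjusted p = 0.0994 and 0.0799), as did a fit with no variance trend (0.134). On its second set the strains overlapped, at a difference of -0.46 ± 0.26.

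Other members of the list that also carry clock control or respond strongly to the hormone were not called. Chosen after their values were seen, Klf9, a factor induced by the hormone and by the clock, differed by 0.35 ± 0.09 (SE, n = 3 each; adjusted p = 0.137), and Tsc22d3, a direct target of the glucocorticoid receptor, by 0.20 ± 0.06 (adjusted p = 0.258). Both were higher in every SHR animal. Pdk4 and Fkbp5 were also chosen after their values were seen. Pdk4, a kinase that restrains glucose oxidation, had 2 kept sets that separated the strains in opposite directions. These lay at -0.56 ± 0.22 with every SHR animal lower and at 0.31 ± 0.12 with every SHR animal higher (adjusted p = 0.452 and 0.453). Fkbp5, a chaperone that dampens the receptor, differed by 0.22 ± 0.21 and 0.11 ± 0.14 on its 2 sets, and the strains overlapped on each. Of 13 kept probe sets of CREB and activity-induced genes limma called 0, where 0.924% of the array was called. At an unadjusted p under 0.05 there was 1, where the array had 9.52%. These counts are near the background of the array. Egr1, an immediate early transcription factor, differed by -0.27 ± 0.12 and Sik1, a kinase that feeds back on CREB, by 0.46 ± 0.22 (SE; adjusted p = 0.509 and 0.560). The part of hormone or activity in the Per1 signal was not tested.

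**Figure D5:**
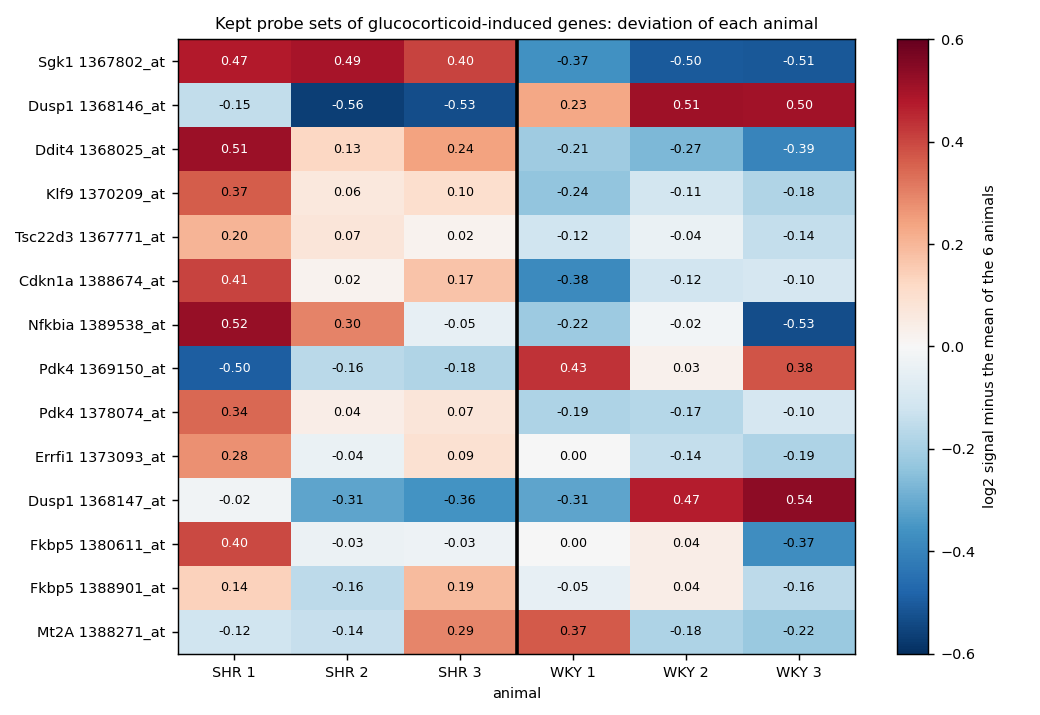
Deviation of each animal from the mean of the 6 animals, in log2 units, for the 14 kept probe sets of glucocorticoid-induced genes, with SHR left and WKY right of the line. Sgk1, Ddit4, Klf9, Tsc22d3, Cdkn1a and Pdk4 1378074_at are above the mean in all SHR animals and below it in all WKY animals. Dusp1 1368146_at and Pdk4 1369150_at show the opposite.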

How the data were processed

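RNA of the rostral ventrolateral medulla of 3 SHR and 3 WKY rats was measured on 1 array each, grouped by the strain in the sample titles. The authors deposited log2 signals with detection calls, and linear signal intensities. The submitters' processing notes name MAS5, with a version not given here. The log2 values equalled the log2 of the linear intensity floored at 1, within 8.2e-06, and each array had the same trimmed mean, so arrays had been scaled to each other. Array medians lay between 7.43 and 7.47. Precision is limited by having 3 animals a strain.

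Control probe sets (57) were left out, and a probe set was kept if Present on at least 3 of 6 arrays (20790). Differences (SHR minus WKY) were fitted to the deposited log2 values with limma 3.58.1 in R 4.3.3 (lmFit, eBayes with a variance trend), 2-sided, with Benjamini-Hochberg adjustment over all kept probe sets, and called at an adjusted p under 0.05. Member sets that failed the filter were fitted over all 31042 sets. Standard errors and 95% intervals are limma's moderated ones. The fit was tested on simulated data. Every probe set of a member is named. Of each other list that marks no tissue or cell type, the called sets and the 2 with the smallest p are named. Further genes of those lists were chosen after their values were seen. List genes were matched by deposited symbol or, failing that, by the RefSeq symbol of the Entrez ID. Coordinates of probe sets are the deposited alignments on Rnor5.0; exons and introns were not assigned. Promoter sequences are RefSeq's on GRCr8. The members and lists were chosen with earlier results of these data known.

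Alternatives were median centring, quantile normalization, pseudocounts of 16 and 64, no filter, a Present call on all 6 arrays, no variance trend, the replicate number as a block, the linear table, and each animal left out.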

Additional observations from a re-analysis of the deposited data

Results flagged for a closer look

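The following 2 probe sets failed the detection filter, were outside the main comparison and had a higher signal in all SHR than in all WKY animals. That of Per1, Absent on all arrays, had an adjusted p = 0.0308 in limma without the filter. That of Per3 1378745_at, Present on 2 arrays, had an adjusted p = 0.768 in the same fit. Non-overlap with SHR higher was seen for 6.87% of all 31042 probe sets, so by itself it does not set these sets apart.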

How the results depend on the processing

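The count of called clock gene probe sets stayed at 0 under every alternative but the fit without a filter, where it was 1 (Per1), and it was 0 with any 1 animal left out. Over the array, 192 probe sets were called, 63 without a variance trend, and between 78 and 205 with 1 animal left out, the lowest counts being 81, 81 and 78 without WKY replicate 1, 2 and 3. Of the glucocorticoid list 3 were called, 1 without a variance trend and between 1 and 3 with 1 animal left out (1 without WKY replicate 2 or 3). The other 4 lists stayed at 0 called. With the replicate block 196 probe sets were called over the array, 0 of them clock genes, and 3 of the glucocorticoid list. The block ended the call of Per1 (adjusted p = 0.0719), and Sgk1, Ddit4 and Dusp1 1368146_at were called with it too. The numbers were not taken as pairs, since the labels do not say that a number pairs animals. Deviations of same-numbered animals correlated at 0.0774, -0.00994 and 0.0660 over kept probe sets. SHR replicates 1 and 3 each correlated best with the WKY animal of the same number, and SHR replicate 2 with WKY replicate 3 (0.0692). These values do not settle whether the numbers pair animals.

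Leaving out 1 animal turned the sign of some differences that were not called: Cry1 ranged from -0.19 to 0.0463, Dbp from -0.0158 to 0.0759, Nr1d2 1370540_at from -0.41 to 0.39, Npas2 from -0.29 to 0.0507, Tef 1390819_at from -0.18 to 0.0404, Hlf 1385585_at from -0.0214 to 0.41 and 1386641_at from -0.0288 to 0.62. Of the sets that failed the filter, Per2 1378560_at ranged from -1.43 to 0.46 and Cry2 1369446_at from -0.58 to 0.25, with 0.23 and 0.0601 without SHR replicate 3 and WKY replicate 3. The sign held under each alternative for the other kept clock gene sets, but with 1 animal left out Per2 1368303_at ranged from 0.0147 to 0.30, Nr1d1 from 0.16 to 0.43, Cry2 1372548_at from 0.0416 to 0.13 and Nr1d2 1390430_at from 0.0114 to 0.15. Arntl ranged from -0.35 to -0.25 and Nr1d2 1370541_at from 0.20 to 0.30. Pseudocounts of 16 and 64, chosen after seeing the data for the sets that failed the filter, turned the sign of none of them. The cause of these changes was not tested.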

Other observations

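After the values were seen, the order of the animals was compared between the strains by replicate number. For 4 of the 9 kept clock gene probe sets, those of Per2, Cry1, Cry2 and Dbp, the numbers stood in the same order in SHR and in WKY. For Per2 and Cry1 replicate 1 was the highest and replicate 2 the lowest, and for Cry2 and Dbp replicate 3 was the highest and replicate 1 the lowest. Over all kept probe sets the same order was seen for 18.2%. The same number was lowest in both strains for 6 of 9 sets, against 35.9% over the array. The 9 sets stand for 7 genes of the same loop, with several sets for Nr1d2, so they are not independent counts. The labels do not say that a number pairs animals, and whether same-numbered animals were collected together was not tested.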
